A study of Homo sapiens with 12 samples.

Results

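The 36 homologous recombination, Fanconi and checkpoint genes described here were chosen by name, as the rows of the deposited expression table whose symbol was on a list of such genes, out of 27514 listed genes. All 36 were in the table, and all 36 passed the filter of a mean of at least 1 CPM (reads of a gene scaled to a fixed library total) over the 12 samples, as did 12680 genes in all. The samples were cultures of IMR32, a human neuroblastoma cell line in which the gene of the transcription factor MYCN is amplified, and RNA was sequenced 72 h after siRNA was delivered by electroporation. There were 4 groups with 3 samples in each: siCtrl, with control siRNA (labelled siCTR), siMYCN, in which MYCN was targeted (siMYCN_2), siHAND2, in which the transcription factor HAND2 was targeted (siHAND2_3), and combined, in which both were (siM2+siH2_3). The study asked which genes the 2 factors regulate. Each target was reduced with a siRNA of a single label in a single cell line, and all groups, siCtrl included, were electroporated. Whether the samples of a group came from separate transfections is not given in the sources used here, so p-values measure the spread between these samples, which may be technical.

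Homologous recombination repairs broken DNA by copying the sister chromatid: the broken ends are resected to tails of unpaired DNA, BRCA1, PALB2 and BRCA2 prepare the tails for strand exchange, the tails are paired with the intact copy, and helicases and nucleases then take the joined molecules apart. The Fanconi pathway repairs crosslinks between the strands, with a core complex that attaches ubiquitin to FANCD2 and FANCI, and it hands the broken intermediate to recombination. The kinases ATR and ATM signal stalled forks and breaks through CHEK1 and CHEK2, and many of these genes are transcribed mainly in cycling cells.

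Depth, estimated from the CPM step of a single read, ran from 31.6 to 64.2 M reads per sample, so that 3 reads correspond to 0.0468 to 0.0949 CPM, and the members' mean CPM ran from 4.33 to 119. CPM is not corrected for gene length, so members are compared with themselves across groups and not with each other in level. MYCN had 964, 1049 and 1015 CPM in the siCtrl samples, 671, 666 and 708 in siMYCN, 899, 844 and 802 in siHAND2, and 555, 458 and 433 in combined. HAND2 had 224, 241 and 254 CPM in siCtrl, then 324, 319 and 334 after siMYCN, 54.3, 64.9 and 67.7 after siHAND2 and 86.3, 67.1 and 67.2 after both. Both targets were thus lower in every sample that received their siRNA than in every siCtrl sample, MYCN to 67.5% and HAND2 to 26.0% of the siCtrl mean after the single siRNAs. After both siRNAs MYCN was at 47.7% and HAND2 at 30.7%. MYCN was at 84.1% after siHAND2 alone, and HAND2 at 136% after siMYCN alone. The share of reads in listed genes went from 65.1% ± 0.74 (SD, n = 3) in siCtrl through 62.4% ± 0.98 after siMYCN and 59.4% ± 2.39 after siHAND2 to 51.4% ± 7.04 after both, where the samples spanned 44.3% to 58.4%. Because this share moves with the groups, values are given as deposited and, beside them, rescaled, with each sample divided by its median ratio to the other samples. The median log2 fold change of all genes against siCtrl was 0.006, −0.14 and −0.28 in siMYCN, siHAND2 and combined as deposited, and 0.014, 0.012 and 0.045 rescaled. Of 9 markers of noradrenergic neuroblasts 8 reached a mean of 1 CPM, with summed levels of 546 to 571 CPM in siCtrl, 720 to 746 in siMYCN, 650 to 704 in siHAND2 and 502 to 780 in combined. Of these 8, 6 were called higher and none lower in siMYCN (6 and none also at an unadjusted p under 0.05 with limma), and 3 were higher and 3 lower in each of siHAND2 and combined, with log2 fold changes in combined of 1.54 for ISL1 and −1.33 for PHOX2A. None of 5 leukocyte or 4 epithelial markers reached a mean of 1 CPM. Of 6 fibroblast markers 2 did, and their summed level was 15.6 to 18.6 CPM in siCtrl and 3.56 to 5.44 CPM in combined, with COL1A2, LUM and DCN under 0.5 CPM in every sample.

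Most members were called lower after each knockdown, with the median change nearest 0 after siMYCN and farthest below 0 after both, while 6 members (FANCC, FANCE, FANCF, FANCL, RMI2 and MUS81) had positive values after siMYCN that were not called as deposited. A gene is termed called where its adjusted p was under 0.05. After siMYCN 20 of 36 members were called lower and none higher, against 16.3% of all genes called lower, 17.4% higher and 33.7% in either direction. In siHAND2 32 members were called lower and none higher, against 30.4% of all genes lower, 12.3% higher and 42.7% in either direction. Called lower in combined were 33 members, with none higher, against 50.1% of all genes lower, 17.4% higher and 67.4% in either direction. At an unadjusted p under 0.05 in the same limma fit, none was higher and 24, 32 and 34 were lower. The median log2 fold change of the members was −0.32, −0.78 and −1.36 in that order, on the log2(CPM + 1) scale used throughout, which understates changes of low genes. As a share of the siCtrl mean, the median member stood at 80.1% in siMYCN, 57.2% in siHAND2 and 37.3% in combined. In bulk RNA, fewer cells with a transcript and less of it per cell cannot be told apart.

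The rescaled values gave 23 members lower and 1 higher in siMYCN, 30 lower and 2 higher in siHAND2, and 33 lower and 2 higher in combined. The background on that scale was 22.5%, 24.9% and 33.0% of genes called lower, 25.4%, 25.9% and 37.7% called higher, and 47.9%, 50.8% and 70.7% called in either direction. The median member then changed by −0.31, −0.62 and −1.02. All 3 samples lay below all 3 siCtrl samples for 26, 32 and 34 members as deposited, against 29.6%, 45.0% and 48.3% of all genes, and for 26, 31 and 33 members rescaled, against 28.9%, 29.9% and 32.9%. The order of group means was siCtrl, siMYCN, siHAND2, combined from high to low in 26 members. In 4 members (RMI2, FANCC, FANCE and FANCL) the siMYCN mean was above the siCtrl mean, with siHAND2 and combined next. In 3 members (PALB2, ATR and RAD50) the order was siCtrl, siHAND2, siMYCN, combined. The other members, FANCF, ATM and MUS81, had orders of their own. Leaving out any siCtrl or siMYCN sample lowered the siMYCN count, to 12 without siCtrl replicate 1 and at most to 17 without another. Calls over all genes fell as well, from 4273 to between 3202 and 3434, and to 3229 without siCtrl replicate 1.

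**Figure D1:**
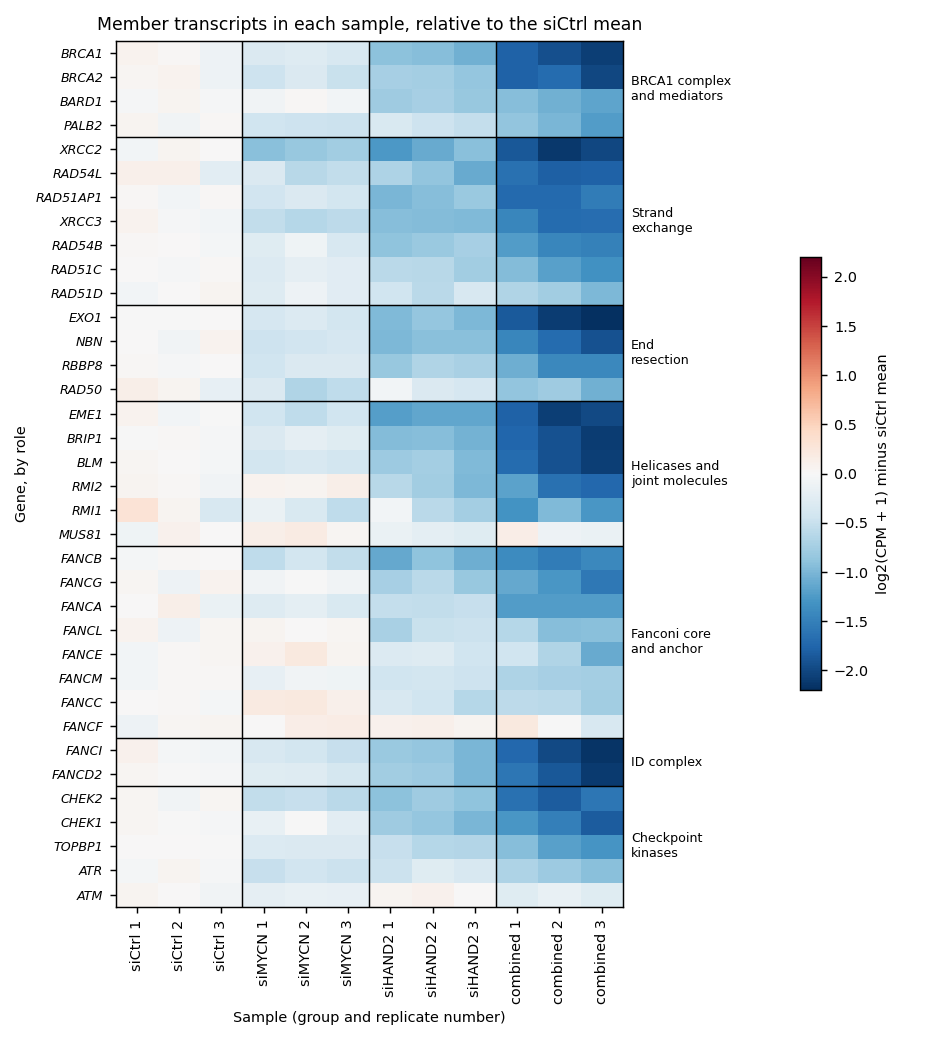
Level of each member (rows, ordered by role) in each of the 12 samples (columns), as log2(CPM + 1) minus the siCtrl mean, with blue for lower and red for higher. Most rows deepen from siMYCN through siHAND2 to combined, while FANCF, MUS81 and ATM stay pale across all groups.

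Most members moved together, and their promoters were searched for short motifs. RefSeq windows (GRCh38.p14, 250 bases before to 50 after the start) were matched by symbol for 32 of 36 members, the others being FANCI, NBN, RMI2 and RAD54B. A single window was kept per symbol, so other starts of a gene, such as BRCA1, were not searched. The window kept need not lie at the start of the gene as listed in the expression data. The letters TTTCCCGC or TTTGGCGC or TTTCGCGC or TTTGCCGC, on either strand, are forms of the site of E2F factors, which drive many S phase genes. They were in 6 of 32 member windows (18.8%), in 5.44% of 9663 windows of tested genes and in 3.33% of all 27305 windows. The sites of these 6 members are shown, chosen after the search, since they are the places where the members' promoters carry this word. Each run is 30 bases of the gene's own strand, 5′ to 3′, with the 8 matching letters in capitals.
EXO1 (chr1:241848197-241848226, plus strand): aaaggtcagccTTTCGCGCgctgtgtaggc
XRCC2 (chr7:152676102-152676131, minus strand): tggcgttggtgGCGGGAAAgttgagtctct
FANCD2 (chr3:10026424-10026453, plus strand): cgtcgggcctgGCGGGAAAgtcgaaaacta
TOPBP1 (chr3:133661930-133661959, minus strand): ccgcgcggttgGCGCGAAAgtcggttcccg
FANCA (chr16:89816801-89816830, minus strand): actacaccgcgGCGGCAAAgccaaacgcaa
FANCC (chr9:95317863-95317892, minus strand): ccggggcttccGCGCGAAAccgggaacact
The EXO1 and XRCC2 matches lie after the start, those of FANCD2 and TOPBP1 span it, and those of FANCA and FANCC lie wholly before it, so that 2 members keep a match in the bases before the start. That is 6.25% of member windows, near the 4.53% of tested windows, against 2.79% of all windows. FANCC holds a further match in its window, making 2. The 6 members with a match changed by a median of −1.20 in combined against siCtrl (rescaled; range −1.72 to −0.30), and the 26 without by −0.90 (range −1.62 to 0.30), so the ranges overlap. A match is a description of letters and not a site shown to be bound.

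For the other motifs the member shares stood above or below those of tested genes as follows. The E-box CACGTG, bound by MYC factors, was in 3 member windows (9.38%) against 10.4% of tested and 7.43% of all windows. The E-box CATCTG, of the type bound by HAND factors, was in 5 (15.6%) against 8.99% and 14.8%. The letters TTTGAA or TTCGAA, of the cell cycle homology region, were in 3 (9.38%) against 10.9% and 16.6%. CCAAT was in 14 (43.8%) against 37.2% and 35.7%. The 250 bases before the start are shown for CHEK2, the checkpoint kinase gene with the most negative change in combined, where CATCTG and the 3 CCAAT matches (read as ATTGG) are in capitals, and for EXO1, the member with the most negative change in combined, where none of the motifs was found before the start.
CHEK2 (chr22:28741821-28742070, minus strand): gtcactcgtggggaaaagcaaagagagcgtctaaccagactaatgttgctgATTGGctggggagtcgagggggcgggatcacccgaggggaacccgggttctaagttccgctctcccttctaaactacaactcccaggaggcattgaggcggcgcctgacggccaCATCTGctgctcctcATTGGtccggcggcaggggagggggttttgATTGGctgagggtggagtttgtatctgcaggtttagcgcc
EXO1 (chr1:241847954-241848203, plus strand): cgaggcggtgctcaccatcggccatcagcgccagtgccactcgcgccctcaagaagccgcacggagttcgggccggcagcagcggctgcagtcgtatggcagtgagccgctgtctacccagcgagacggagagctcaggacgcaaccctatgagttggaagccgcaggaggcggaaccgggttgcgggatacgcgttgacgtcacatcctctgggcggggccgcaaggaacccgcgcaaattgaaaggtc
In CHEK2 the CATCTG match begins 85 bases before the start and the CCAAT matches 199, 70 and 40 bases before it. The 5 members with CATCTG changed by a median of −0.68 in siHAND2 (rescaled; range −0.87 to 0.24), and the 27 without by −0.57 (range −1.01 to 0.21). The 3 members with CACGTG changed by a median of −0.41 in siMYCN (range −0.50 to 0.19), and the 29 without by −0.31 (range −0.83 to 0.13). With or without either E-box, members covered much the same range.

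Among the BRCA1 complex and its mediators, all 4 genes were called lower in siHAND2 and in combined, and 3 of 4 in siMYCN. Of all genes 30.4%, 50.1% and 16.3% were called lower in these. BRCA1 (chr17:41196312-41277501, hg19), a ubiquitin ligase scaffold that promotes resection and recruits PALB2, had 172, 166 and 151 CPM in siCtrl, then 131, 133 and 128 after siMYCN, 86.7, 85.1 and 77.3 after siHAND2 and 46.8, 41.7 and 37.8 after both. The 4 groups did not overlap, and combined stood at 25.8% of the siCtrl mean. Its log2 fold changes were −0.32 (SE 0.112, adjusted p = 0.0304) in siMYCN, −0.97 (adjusted p = 1.58e-07) in siHAND2 and −1.93 (adjusted p = 1.41e-13) in combined. BRCA2, a mediator of strand exchange, had 53.3, 54.9 and 47.9 CPM in siCtrl, then 37.5, 41.5 and 36.8 after siMYCN, 30.98, 30.4 and 28.3 after siHAND2 and 14.5, 15.4 and 12.3 after both, again with no overlap between groups. PALB2 (chr16:23614483-23652679), the bridge between BRCA1 and BRCA2, had 25.7, 23.4 and 25.1 CPM in siCtrl, then 18.04, 17.7 and 17.6 after siMYCN, 19.3, 17.8 and 16.9 after siHAND2 and 13.04, 11.8 and 9.95 after both. For PALB2 the single knockdowns overlapped, with fold changes of −0.45 (SE 0.110, adjusted p = 0.00244) and −0.44 (adjusted p = 0.00244). BARD1, the ligase partner of BRCA1, was the exception in siMYCN at 97.6% of the siCtrl mean (adjusted p = 0.829). It was at 57.0% in siHAND2 (adjusted p = 1.47e-06) and 46.9% in combined.

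All 7 genes of the strand exchange group were called lower in siHAND2 and combined, and 4 of 7 in siMYCN. The shares of all genes were 30.4%, 50.1% and 16.3%. XRCC2 (chr7:152343587-152373251), a subunit of a complex with RAD51C and RAD51D, had 20.3, 22.2 and 21.3 CPM in siCtrl, then 10.7, 11.5 and 12.05 after siMYCN, 8.23, 9.33 and 10.8 after siHAND2 and 5.10, 4.09 and 4.53 after both. It had the most negative change of any member in siMYCN (−0.84, SE 0.114, adjusted p = 3.09e-06). Its siMYCN and siHAND2 samples overlapped at the edge, and the difference between those groups was −0.26 (adjusted p = 0.0813). XRCC3, the other partner of RAD51C, was at 65.3%, 49.3% and 30.2% of the siCtrl mean in siMYCN, siHAND2 and combined. RAD51AP1, which helps pair DNA strands, was at 76.1%, 51.2% and 29.2%. RAD54L, a DNA motor of strand exchange, had the lowest share of all members in combined, 20.3%, from 7.34 CPM ± 1.07 (SD, n = 3) in siCtrl to 1.49 ± 0.142. RAD54B, its relative, RAD51C and RAD51D were not called in siMYCN (adjusted p = 0.0941, 0.0930 and 0.154), and stood at 36.3%, 43.7% and 51.3% in combined. Rescaled, RAD54B and RAD51C were also called lower in siMYCN. RAD51D lies wholly within a listed readthrough gene on its strand, so reads of the pair may not be separable.

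In end resection, all 4 genes were called lower in siMYCN and in combined, and 3 of 4 in siHAND2. The shares of all genes were 16.3%, 50.1% and 30.4%. EXO1 (chr1:242011493-242053242), an exonuclease that lengthens resected tails, had 94.4, 94.6 and 95.6 CPM in siCtrl, then 72.9, 76.5 and 71.7 after siMYCN, 47.7, 52.03 and 47.05 after siHAND2 and 25.7, 21.7 and 18.6 after both. The groups were widely apart, and −2.07 (SE 0.115, adjusted p = 6.28e-14) in combined was the most negative fold change of any member. NBN (chr8:90945564-90996953), a subunit of the complex that senses broken ends, had 185, 174 and 194 CPM in siCtrl, then 135, 137 and 143 after siMYCN, 92.4, 97.1 and 96.5 after siHAND2 and 67.4, 56.02 and 48.1 after both. RAD50 (chr5:131892616-131980314), in the same complex, had 55.1, 52.3 and 43.99 CPM in siCtrl, then 40.2, 31.3 and 33.6 after siMYCN, 47.98, 40.3 and 38.5 after siHAND2 and 26.96, 28.7 and 23.7 after both. The NBN groups were separate in steps, whereas siHAND2 samples of RAD50 overlapped both siCtrl and siMYCN. For RAD50 the change was −0.52 (SE 0.125, adjusted p = 0.00232) in siMYCN and −0.25 (adjusted p = 0.106) in siHAND2. RBBP8, which starts resection with that complex, was at 77.5%, 59.4% and 39.8% of the siCtrl mean in siMYCN, siHAND2 and combined.

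Of 6 helicase and joint molecule genes, 2 were called lower in siMYCN, 5 in siHAND2 and 5 in combined. The shares of all genes were 16.3%, 30.4% and 50.1%. EME1 (chr17:48450581-48458821), a partner of the nuclease MUS81, had 26.00, 23.5 and 24.6 CPM in siCtrl, then 17.9, 16.5 and 17.9 after siMYCN, 10.1, 10.6 and 10.7 after siHAND2 and 6.52, 5.08 and 5.49 after both. Its change of −1.16 (SE 0.108, adjusted p = 3.63e-09) was the most negative of any member in siHAND2. MUS81, the catalytic partner of EME1, had 12.2, 14.04 and 13.2 CPM in siCtrl, then 14.4, 15.1 and 13.6 after siMYCN, 11.8, 11.2 and 10.7 after siHAND2 and 14.7, 12.1 and 11.8 after both, and is named after its values were seen. Its siCtrl and combined samples overlapped, and its change in combined was −0.03 (adjusted p = 0.798) as deposited and 0.30 (adjusted p = 0.00201) rescaled, so its direction turned with the scale.

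BLM, the helicase that dissolves joined molecules, had 88.8, 86.9 and 83.6 CPM in siCtrl, then 65.3, 67.8 and 65.3 after siMYCN, 49.4, 51.1 and 43.8 after siHAND2 and 25.9, 22.2 and 19.8 after both. BRIP1, a helicase bound by BRCA1, had 123, 127 and 122 CPM in siCtrl, then 99.3, 108 and 102 after siMYCN, 63.5, 64.4 and 59.5 after siHAND2 and 36.2, 32.2 and 28.4 after both. Neither gene's groups overlapped, although the siMYCN change of BRIP1 was not called (−0.26, adjusted p = 0.0730, 0.0486 with a replicate block and 0.0011 rescaled). RMI2, a partner of BLM, had 17.1, 16.6 and 15.3 CPM in siCtrl, then 17.2, 16.97 and 18.02 after siMYCN, 10.3, 9.21 and 7.76 after siHAND2 and 6.67, 4.53 and 4.22 after both. Its siMYCN samples overlapped siCtrl (0.09, adjusted p = 0.648), while siHAND2 and combined lay below both. RMI1, the other partner, averaged 27.2 CPM ± 6.25 (SD, n = 3) in siCtrl. It stood at 41.3% of that mean in combined (adjusted p = 5.43e-07). Its siMYCN change was −0.35 (adjusted p = 0.103, and 0.0190 with the replicate block). In siHAND2 it was −0.46 (adjusted p = 0.0242, and 0.172 rescaled).

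Of the 8 Fanconi core and anchor genes, 2 were called lower in siMYCN, 7 in siHAND2 and 7 in combined. The shares of all genes were 16.3%, 30.4% and 50.1%, so the siMYCN count was not far from its share. The median change of the core and anchor group, −0.01, −0.50 and −0.79, was smaller than that of the other roles in each comparison. FANCB (chrX:14861529-14891192), in the catalytic module of the core with FANCL, had 15.1, 15.8 and 15.6 CPM in siCtrl, then 10.2, 11.5 and 10.3 after siMYCN, 6.58, 7.98 and 6.86 after siHAND2 and 5.35, 4.66 and 5.19 after both. Its 4 groups did not overlap, with changes of −0.50 (SE 0.108, adjusted p = 0.000723), −1.02 (adjusted p = 3.61e-08) and −1.44 (adjusted p = 1.26e-11). FANCA was the other core gene called in siMYCN (81.8% of the siCtrl mean, adjusted p = 0.0454), and was at 40.2% in combined. FANCG, which binds FANCA, was at 95.8%, 59.4% and 38.3% in siMYCN, siHAND2 and combined. FANCL, the ubiquitin ligase subunit, was at 102%, 66.9% and 55.2%, and FANCM, the translocase that anchors the core to DNA, at 92.0%, 73.0% and 59.1%.

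FANCC, FANCE and FANCF form a module that links the core to its substrate, and FANCC and FANCE shared an order of group means that FANCF did not. FANCC was at 113%, 71.1% and 62.7% of the siCtrl mean. Its rise in siMYCN was called on the rescaled values alone (0.19, adjusted p = 0.0377, against 0.18 and 0.224 as deposited). FANCE was at 110%, 77.8% and 58.4%, with a call in siHAND2 as deposited (adjusted p = 0.0372) that was lost rescaled (0.0588). FANCF had 26.2, 29.3 and 29.5 CPM in siCtrl, then 28.5, 31.4 and 31.9 after siMYCN, 30.1, 30.5 and 29.5 after siHAND2 and 32.9, 28.1 and 21.9 after both, and is given sample by sample after its values were seen. As deposited its siMYCN and combined samples overlapped siCtrl, its siHAND2 samples lay above siCtrl by a margin smaller than the rounding shown, and no contrast against siCtrl was called. Rescaled, its change was 0.24 (adjusted p = 0.00990) in siHAND2 and 0.30 (adjusted p = 0.00138) in combined, against −0.05 as deposited in the latter.

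Both subunits of the Fanconi ID complex, the clamp that ubiquitin locks onto DNA at a crosslink, were called lower after every knockdown. Of all genes 16.3%, 30.4% and 50.1% were called lower in siMYCN, siHAND2 and combined. FANCI (chr15:89787194-89860363) had 170, 155 and 152 CPM in siCtrl, then 124, 119 and 112 after siMYCN, 89.4, 87.3 and 78.3 after siHAND2 and 47.5, 39.3 and 34.7 after both. FANCD2 had 82.2, 79.9 and 78.5 CPM in siCtrl, then 66.2, 66.02 and 61.2 after siMYCN, 46.6, 45.7 and 39.5 after siHAND2 and 25.9, 21.4 and 17.9 after both. The groups of neither gene overlapped, and the shares of the siCtrl mean for FANCI and FANCD2 lay close together: 74.4% and 80.4% in siMYCN, 53.5% and 54.7% in siHAND2, and 25.5% and 27.1% in combined. The siMYCN change was −0.42 (SE 0.119, adjusted p = 0.00754) for FANCI and −0.31 (SE 0.121, adjusted p = 0.0488) for FANCD2.

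The checkpoint kinases split. CHEK2 (chr22:29083731-29137823), the kinase downstream of ATM, had 18.9, 17.2 and 18.9 CPM in siCtrl, then 12.2, 12.6 and 11.74 after siMYCN, 9.37, 10.2 and 9.43 after siHAND2 and 5.17, 4.40 and 5.41 after both. CHEK1 (chr11:125495031-125546152), the kinase downstream of ATR, had 33.8, 32.3 and 32.1 CPM in siCtrl, then 28.99, 32.5 and 27.9 after siMYCN, 18.6, 17.7 and 15.7 after siHAND2 and 12.97, 10.9 and 8.43 after both. CHEK2 groups did not overlap, whereas for CHEK1 siMYCN overlapped siCtrl (−0.13, SE 0.125, adjusted p = 0.437) and the other groups lay lower. TOPBP1, an activator of ATR, was at 80.1%, 65.9% and 45.0% of the siCtrl mean, called in each comparison. ATR had 42.3, 45.7 and 42.7 CPM in siCtrl, then 30.5, 32.2 and 31.2 after siMYCN, 31.3, 36.02 and 34.1 after siHAND2 and 26.9, 24.5 and 22.6 after both. ATM had 48.5, 46.7 and 43.5 CPM in siCtrl, then 40.2, 41.1 and 40.8 after siMYCN, 48.3, 49.2 and 46.3 after siHAND2 and 38.4, 41.4 and 38.1 after both. Both kinases are given sample by sample after their values were seen. ATR was lower in all 3 knockdowns, with its single knockdowns overlapping, while ATM in siHAND2 overlapped siCtrl. In the fit without a replicate block ATM was called lower in no comparison with siCtrl: its change was −0.18 (adjusted p = 0.193) in siMYCN, 0.05 (adjusted p = 0.709) in siHAND2 and −0.23 (adjusted p = 0.0537) in combined. Rescaled, the combined value of ATM was 0.12 (not called, adjusted p 0.1996) and its siHAND2 value 0.21 (adjusted p = 0.0499).

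**Figure D2:**
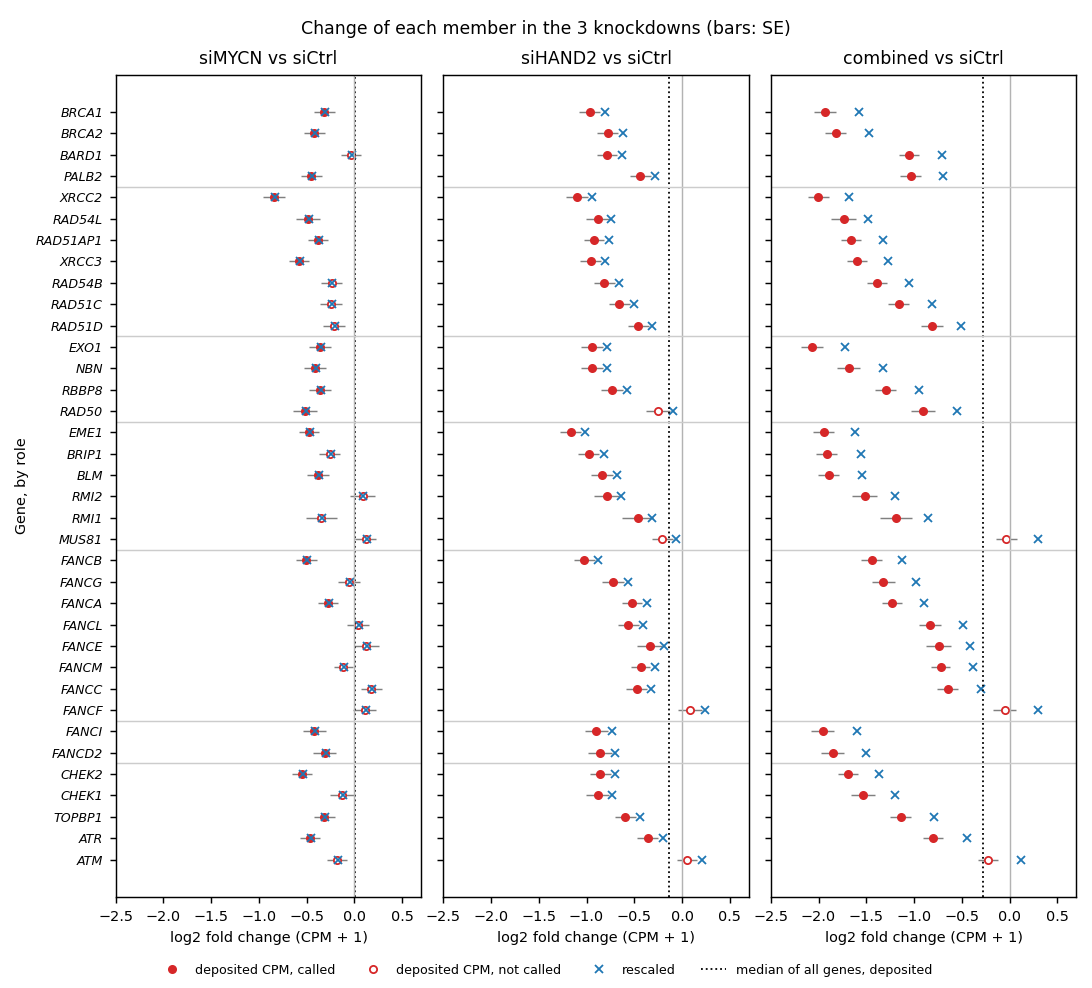
Log2 fold change of each member against siCtrl in the 3 knockdowns, with bars of 1 SE on the deposited values; filled circles were called, crosses are rescaled values and the dotted line is the median of all genes. Nearly all circles lie left of the dotted line in siHAND2 and combined, and those of FANCF, MUS81 and ATM in combined lie to its right.

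**Figure D3:**
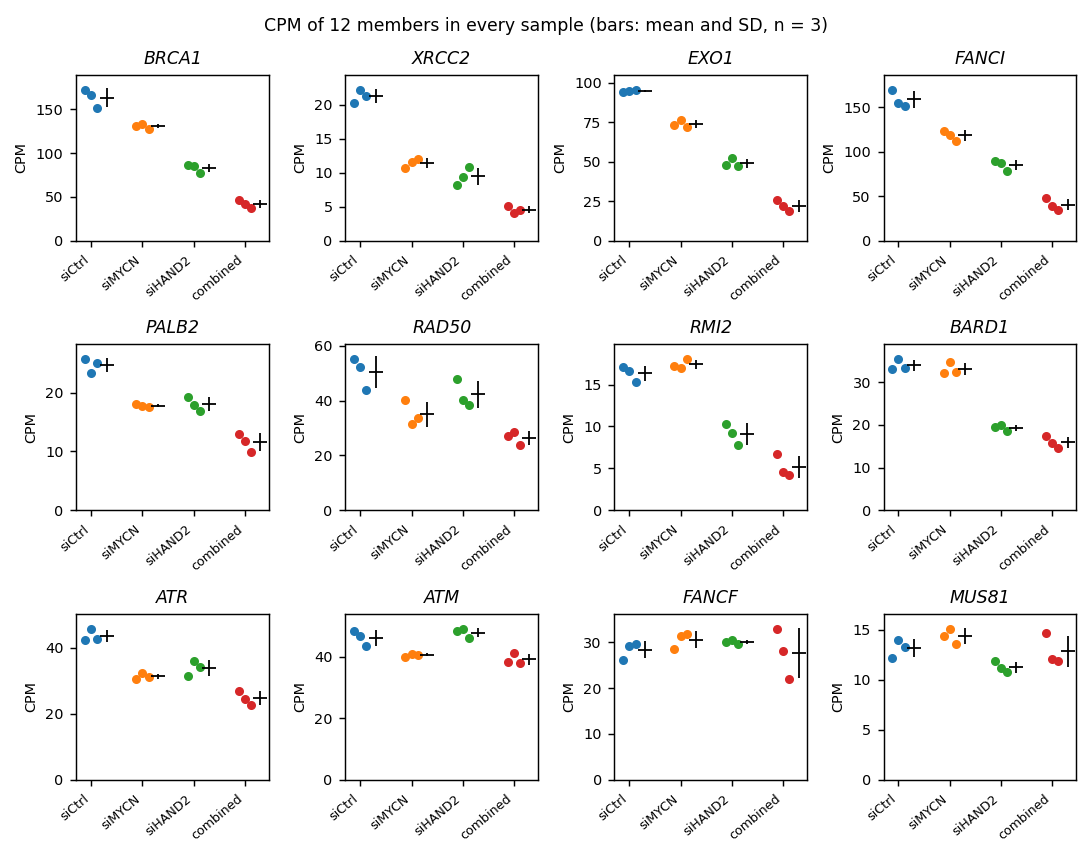
CPM of 12 members in each sample by group, with mean and SD (n = 3) beside the points. BRCA1, EXO1 and FANCI step down through the groups, RMI2 and BARD1 are level between siCtrl and siMYCN, and ATM, FANCF and MUS81 overlap between siCtrl and at least 1 other group.

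The single knockdowns were also compared directly. In siHAND2 against siMYCN 26 of 36 members were called lower and none higher, against 26.1% of all genes lower, 8.98% higher and 35.0% in either direction (30 lower and 2 higher at an unadjusted p under 0.05), with a median of −0.43 against −0.13 for all genes. Rescaled, 22 members were lower and 4 higher, against 22.4% and 22.2% of all genes and 44.5% in either direction, with a median of −0.29. All 3 siHAND2 samples lay below all 3 siMYCN samples in 29 members, against 44.9% of all genes. The most negative values were those of RMI2 (−0.87, adjusted p = 8.62e-06), CHEK1 (−0.75, adjusted p = 3.86e-05), BARD1 (−0.75, adjusted p = 4.14e-06) and BRIP1 (−0.72, adjusted p = 1.50e-05). None of these 4 was called in siMYCN against siCtrl as deposited without a replicate block, and BRIP1 (adjusted p = 0.0730 with limma) was called with the block (0.0486) and rescaled (0.0011). The 4 members called higher on the rescaled values were RAD50 (0.41, adjusted p = 0.00535), ATM (0.38, adjusted p = 0.00210), ATR (0.25, adjusted p = 0.00962) and PALB2 (0.16, adjusted p = 0.0400). As deposited, those values were 0.26, 0.23, 0.11 and 0.02, and none was called (adjusted p = 0.103, 0.0841, 0.463 and 0.922). With the replicate block RAD50 was called higher (adjusted p = 0.0458) and TOPBP1 lower (adjusted p = 0.0320, against 0.0522 without it).

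The combined knockdown went below each single knockdown in most members. Against siMYCN 33 members were called lower in combined and none higher, against 50.0% of all genes lower, 8.92% higher and 58.9% in either direction, with a median of −1.02. Against siHAND2 it was 32 lower and none higher, against 31.5%, 8.75% and 40.3%, with a median of −0.65. At an unadjusted p under 0.05 in the limma fit none was higher in either comparison, and 33 were lower in each. Rescaled, the first comparison gave 31 lower and 2 higher against 26.6% and 30.0% of all genes (56.7% in either direction), and the second 28 lower and 1 higher against 23.6% and 26.1% (49.7%). The rescaled higher calls were ATM (0.29) and FANCF (0.18) against siMYCN, both negative as deposited (−0.05 and −0.16), and MUS81 against siHAND2 (0.36 rescaled, 0.18 as deposited). ATR against siMYCN was −0.33 (adjusted p = 0.00985) as deposited and 0.0043 (adjusted p = 0.964) rescaled. On the log2(CPM + 1) scale EXO1 had the most negative change in both, −1.71 (adjusted p = 5.51e-12) and −1.13 (adjusted p = 8.15e-08) with limma. That scale understates the changes of low genes such as RMI2 and RAD54L, so the rank holds for it alone. The comparisons share the combined samples and are given side by side.

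An interaction term asked whether the effect of siHAND2 differed with and without siMYCN, and a negative value means that combined was lower than the sum of the single changes on the log2 scale. It was called negative in 8 of 36 members and positive in none, against 3.65% of all genes negative, 0.355% positive and 4.01% in either direction. At an unadjusted p under 0.05 in the limma fit 15 members were negative and none positive. The median was −0.31 for members and −0.18 for all genes as deposited, and −0.14 and −0.01 rescaled. The 8 were RMI2 (−0.82, SE 0.183, adjusted p = 0.0104), EXO1 (−0.77, SE 0.163, adjusted p = 0.00705), FANCD2 (−0.68, SE 0.171, adjusted p = 0.0216), BRIP1 (−0.68, SE 0.156, adjusted p = 0.0125), BLM (−0.68, SE 0.160, adjusted p = 0.0145), BRCA1 (−0.65, SE 0.158, adjusted p = 0.0178), FANCI (−0.64, SE 0.168, adjusted p = 0.0291) and BRCA2 (−0.62, SE 0.158, adjusted p = 0.0228). Rescaled, the same 8 were called, at −0.66, −0.59, −0.50, −0.49, −0.50, −0.46, −0.45 and −0.44, and FANCG joined them (−0.37, adjusted p = 0.0349), against 4.47% of all genes negative, 1.67% positive and 6.14% in either direction. By role they were 2 of 4 in the BRCA1 group, 1 of 4 in resection, 3 of 6 among helicases and both ID genes. No strand exchange gene, core gene or checkpoint gene was called as deposited in the fit without a replicate block. XRCC2 (−0.06, adjusted p = 0.832) and XRCC3 (−0.06, adjusted p = 0.831) were close to the sum of their single changes, and FANCB had the most positive value (0.08, SE 0.152, adjusted p = 0.755). The targets were not equally reduced: MYCN was at 67.5% of the siCtrl mean in siMYCN, 84.1% in siHAND2 and 47.7% in combined. The part of this in the interactions was not tested.

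The count of 8 interactions moved with single libraries on the deposited scale: it was 23 without combined replicate 1, 2 without siMYCN replicate 2 or siHAND2 replicate 2, 3 without siCtrl replicate 3, and 4 without siMYCN replicate 1 or siHAND2 replicate 1. Calls over all 12680 genes moved too, from 508 to 4443 without combined replicate 1. They were 263 without siMYCN replicate 2, 271 without siHAND2 replicate 2 and 294 without siCtrl replicate 3. Without siMYCN replicate 1 and siHAND2 replicate 1 they were 302 and 297. On the rescaled values, leaving out each sample gave 7 to 11 members, with 415 to 1436 of all genes called. Combined replicate 1 also had the highest share of reads in listed genes of its group, 58.4%, and replicate 3 the lowest, 44.3%; the part of this in the interactions was not tested beyond the rescaling. EXO1 was called in all 21 settings tried at an adjusted p under 0.05.

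**Figure D4:**
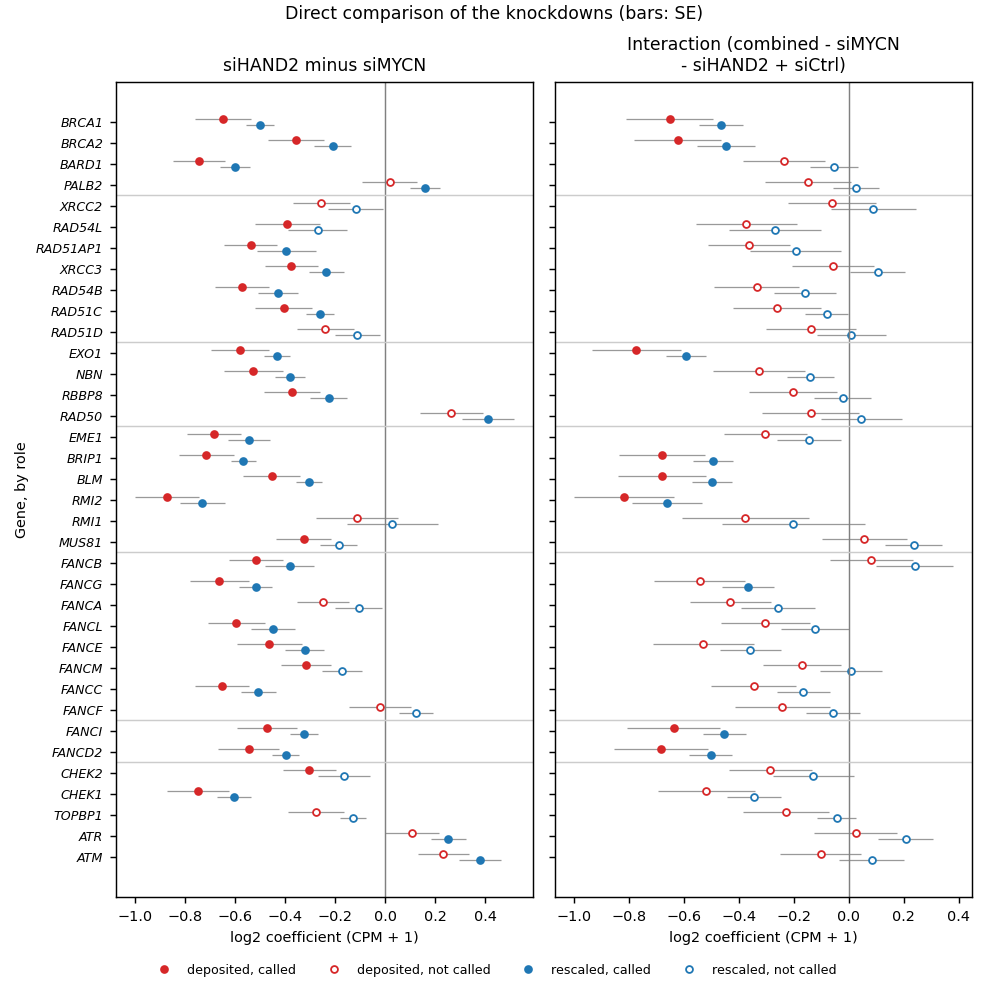
Log2 coefficient of each member for siHAND2 minus siMYCN (left) and for the interaction (right), as deposited (red) and rescaled (blue), with bars of 1 SE and filled circles for called values. Most members lie left of 0 on the left, with RAD50, ATM, ATR and PALB2 to the right as deposited, and RMI2 and EXO1 lie farthest left on the right.

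The other genes of these pathways had medians nearer 0 than the members in combined, and S phase genes had a lower median. The members were set beside 6 other lists, whose tested genes numbered 38 for homologous recombination, 19 for Fanconi and crosslink repair, 21 for checkpoints, 11 for end joining, 35 for excision and mismatch repair and 34 for S phase and proliferation. In combined against siCtrl, where 50.1% of all genes were called lower, 30 of the 38 other recombination genes were called lower and none higher (median −1.03). The Fanconi list had 14 of 19 lower and none higher (−0.70), and the checkpoint list 19 of 21 lower and 1 higher (−1.002). The end joining list, with 6 of 11 lower and 2 higher (−0.58), had a share near that of all genes. The excision and mismatch list had 27 of 35 lower and 1 higher (−0.65), and all 34 S phase genes were lower (−1.69). Rescaled, the lists had in this order 25 lower and 4 higher (−0.69), 12 and 3 (−0.36), 17 and 2 (−0.67), 5 and 4 (−0.24), 22 and 7 (−0.30), and 34 and 0 (−1.34), against 33.0% of all genes lower. In siHAND2, against 30.4% of all genes, the lower calls were 25 (median −0.56), 11 (−0.36), 15 (−0.50), 5 (−0.23), 20 (−0.30) and 34 (−0.83) in the same order, with 1 higher call, in the checkpoint list. Rescaled they were 23 (−0.40), 11 (−0.21), 15 (−0.34), 4 (−0.07), 16 (−0.15) and 33 (−0.67), with 2, 1, 1, 2, 3 and 0 higher. On that scale 24.9% of all genes were lower. After siMYCN, against 16.3% of all genes, the lower calls were 15 (−0.21), 5 (−0.11), 6 (−0.15), 0 (−0.07), 4 (−0.14) and 9 (−0.22), with 1, 0, 1, 1, 0 and 0 higher, the 0 lower for end joining being 1 at an unadjusted p under 0.05 in the limma fit. Rescaled they were 21 (−0.20), 7 (−0.10), 9 (−0.14), 1 (−0.06), 14 (−0.13) and 18 (−0.21), with 3, 0, 1, 2, 4 and 1 higher, against 22.5% of all genes lower. The members' siMYCN medians of −0.32 as deposited and −0.31 rescaled were lower than that of every list. Of all genes 17.4%, 12.3% and 17.4% were called higher in siMYCN, siHAND2 and combined as deposited. Rescaled, these shares were 25.4%, 25.9% and 37.7%. No test compared the lists, and each median is a description. The summed level of the S phase list was 4666 to 5019 CPM in siCtrl, 3901 to 4212 in siMYCN, 2581 to 2857 in siHAND2 and 1234 to 1718 in combined, moving with the members across all groups; its part in their falls was not tested.

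**Figure D5:**
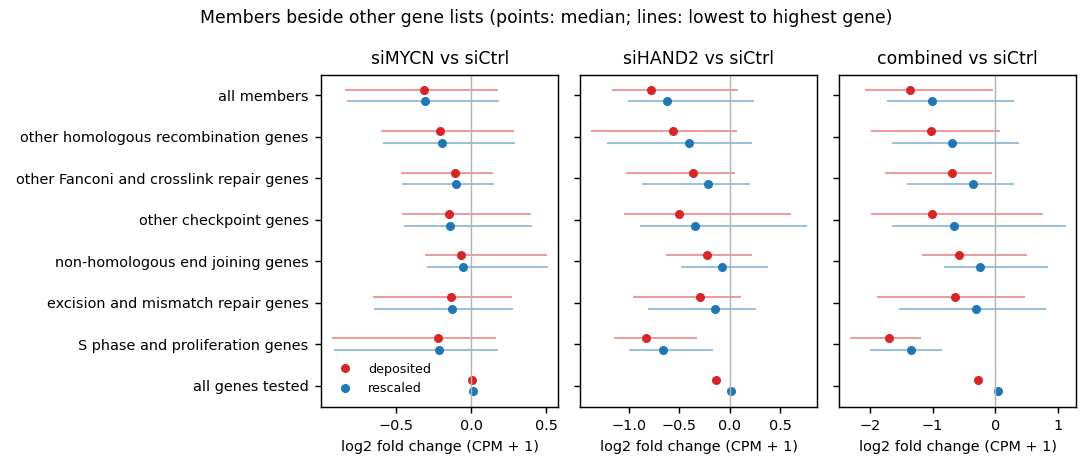
Median log2 fold change against siCtrl (points) and lowest to highest gene (lines) of the members and 6 other gene lists in the 3 knockdowns, as deposited (red) and rescaled (blue), with the median of all genes tested at the bottom. The members and the S phase list lie farthest left in siHAND2 and combined, and end joining genes lie nearest to all genes.

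Partners of the members in these lists had the following values. MRE11, the nuclease that joins NBN and RAD50, was called lower in every knockdown (−0.58, −0.73 and −1.56). UBE2T, which gives ubiquitin to FANCL, changed by −0.40, −0.81 and −1.21, and USP1, which takes it off the ID complex, by −0.32, −1.03 and −1.77, all called. PARPBP, an inhibitor of recombination, had the largest fall of the other recombination genes in combined (−1.98, adjusted p = 3.93e-14). Of the checkpoint list, CDC25A (−1.98), PKMYT1 (−1.96) and TIMELESS (−1.82) changed most in combined. Of the end joining list these were XRCC6 (−1.17), XRCC5 (−0.88) and C9orf142 (−0.81), each of them called. In siMYCN none of these genes was called as deposited (adjusted p = 0.0794, 0.735 and 0.256 with limma). Rescaled, XRCC6 was called lower there (−0.30, adjusted p = 0.00273 with limma).

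The genes whose pattern over the 12 samples was most like the members' mean were, as deposited, WDHD1 (Pearson r = 0.999), TRIP13 (0.999), ORC1 (0.998), SKA3 (0.998) and MCM7 (0.997), and rescaled KNTC1 (0.994), CDCA7 (0.994), GINS1 (0.993), WDHD1 (0.993) and MTBP (0.993), out of 10157 other genes. These are descriptions over samples that share 4 groups. The members least like the mean of the others were FANCF (0.30), MUS81 (0.33) and ATM (0.44) as deposited, and rescaled the same 3 ran against it (−0.85, −0.59 and −0.43).

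Reads may be shared where genes overlap, since whether counting used the strand is not given in the sources used here. Of the members 9 overlap a listed gene with a mean of at least 1 CPM. RAD54B shares 8.96% of its span with FSBP on its strand, and XRCC3 22.02% with KLC1, MUS81 16.7% with EFEMP2, FANCA 4.27% with ZNF276 and EME1 2.77% with LRRC59 on the other strand. FANCI, FANCL, RAD54L and RMI1 share less of their span. The neighbour can be far higher in level: RMI1, with a mean of 19.7 CPM, overlaps HNRNPK at 521 CPM. EME1, at 14.6 CPM, overlaps LRRC59 at 247 CPM. How many reads were shared was not tested.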

How the data were processed

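RNA was sequenced in 12 samples of 4 groups, placed by their titles. The authors deposited a table of CPM values with 1 column per sample; per the submitters' processing notes STAR 2.5.1 and Partek were used with hg19 (GRCh37), and the roles of these tools, the counting settings and the annotation are not given in the sources used here. A constant of 0.0001 stood in every deposited CPM value. Depth was estimated from the step between low values; the share of values that came out whole, within 0.05 reads, was 88.9 to 90.5% under 20 reads and 80.3 to 81.6% between 20 and 200 reads, so no count test was run. Intervals from depth cover counting error only.

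The 12680 genes whose mean CPM reached 1 were fitted as log2(CPM + 1) with limma 3.58.1 (lmFit, contrasts.fit, eBayes with trend) in R 4.3.3, all 12 samples in a single fit with 8 residual degrees of freedom, two-sided, with Benjamini-Hochberg adjustment over all genes tested. Genes are called at an adjusted p under 0.05. The fit was tested on simulated data. For rescaling, genes with a mean CPM of 5 or more were used: each sample's ratios to their geometric means were taken, and the sample was divided by the median ratio. Alternatives were this rescaling, CPM over listed genes, a pseudocount of 0.1, all genes above the constant, genes with a mean CPM from 5 up, fits without the other groups, eBayes without trend, a threshold of 0.01, a threshold with a minimum log2 fold change of 1 in size, a replicate block on either scale, and the omission of each sample. Leaving out samples on the rescaled values was added after seeing the data.

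The titles number the replicates. Deviations of same-numbered samples correlated above 0.1 in all 3 pairs for siCtrl with siMYCN (0.44, 0.15 and 0.31) and for siMYCN with siHAND2 (0.33, 0.14 and 0.32), so the number was taken to pair those groups. The main counts and p-values still come from the fit without a replicate block and leave this pairing out. Counts with the block are given among the alternatives.

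The members, gene lists and tests were chosen with earlier results of these data known. Members are given sample by sample where they have the largest absolute change of their role in a knockdown, the extreme interaction or a called interaction; from each other list the rule takes the 3 largest changes in combined at a mean CPM of at least 5, with further genes such as MRE11, UBE2T, RPA1 and PCNA; not all of these are described, and 1 is not reported here. Sequences are from RefSeq (GRCh38.p14) and gene positions from the table (hg19).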

Additional observations from a re-analysis of the deposited data

Results flagged for a closer look

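For 8 members the interaction term of the limma fit, for the effect of siHAND2 with and without siMYCN, was called as deposited. Of all genes 4.01% were called in either direction. EXO1 alone was called in all 21 settings at an adjusted p under 0.05. The coefficient was −0.82 for RMI2, −0.77 for EXO1, −0.68 for FANCD2, −0.68 for BRIP1, −0.68 for BLM, −0.65 for BRCA1, −0.64 for FANCI and −0.62 for BRCA2. Groups of 3 samples were not searched for outlying samples.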

How the results depend on the processing

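At an adjusted p under 0.01, 13 members were called in siMYCN against siCtrl and 1 in the interaction, with 2761 and 169 of all 12680 genes called. A minimum log2 fold change of 1 in size left 0 in siMYCN, 3 in siHAND2 and 26 in combined against siCtrl. It left 0 in siHAND2 against siMYCN, 19 in combined against siMYCN, 4 in combined against siHAND2 and 0 in the interaction. Of all genes it left 290, 507, 2110, 407, 966, 213 and 69 in the same order. With no filter the interaction count was 4, with 21114 genes adjusted for and 156 of them called. Leaving out each sample in turn gave 12 to 23 members in siMYCN, 30 to 33 in siHAND2, 33 to 34 in combined, 21 to 32 in siHAND2 against siMYCN, 32 to 35 and 28 to 34 in combined against siMYCN and siHAND2, and 2 to 23 in the interaction (7 to 11 rescaled). The calls over all genes ran from 3202 to 5756, 4303 to 6941, 7833 to 9340 and 3261 to 6082 in the same order. They ran from 6414 to 8960 and 3905 to 6962 for combined against siMYCN and siHAND2, and from 263 to 4443 for the interaction. The libraries behind the changes over 1.5 times are named beside the results; their cause was not tested. Rescaling turned FANCF and MUS81 in combined against siCtrl to 0.30 and 0.30 (0.29 and 0.30 scaled to the listed genes, 0.30 and 0.30 with the replicate block and rescaling). Against siMYCN it turned FANCF to 0.18, ATM to 0.29 and ATR to 0.0043, the same with the block, and scaling to the listed genes turned ATM to 0.23. E2F-type motifs were in 2 and CACGTG in 1 member when only bases before the start were searched. Those are 6.25% and 3.13% of member windows, against 4.53% and 9.23% of tested windows. The replicate block gave 22, 32, 34, 28, 33 and 33 members in the 6 pairwise comparisons, with 4926, 6140, 8951, 5163, 8069 and 5839 of all genes called. In the interaction it gave 11 members and 1282 of all genes, and added CHEK1, FANCE and FANCG (adjusted p = 0.0261, 0.0321 and 0.0207 with limma). In combined against siCtrl it added ATM (adjusted p = 0.0461). Over all 18 same-numbered pairs the correlation ran from −0.19 to 0.44 and in 11 of the 18 pairs the best match was the own number. Called lower in all 22 settings at 0.05 were 12 members in siMYCN, 29 in siHAND2 and 33 in combined, with RAD54L not tested at a minimum mean CPM of 5. The share of all genes lower in every setting was not counted. In the main fit alone it was 16.3%, 30.4% and 50.1%, so these counts are not set against a background. Depth did not limit the members, whose lowest mean was 4.33 CPM.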
